A study of Mus musculus with 9 samples.

Results

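The genes Hp, which encodes haptoglobin, and Kng1, which encodes kininogen, were described on 9 expression arrays of mouse colon, 3 per group. They are 2 of the 176 genes that could be named on these arrays, and for each only a single probe, among 166924 of which most have no name, could be linked to the gene. Both were selected on measured values of the same arrays: they stand in the study's list of 99 probes that were raised in the DSS group and lower again in the DSS+PAMK group. Their levels are therefore given as a description, with no test, and the direction of these differences is not a finding. All mice were male C57BL/6J, aged 10 weeks, and no genetic change is given for any group. The Control mice drank distilled water, while the DSS and DSS+PAMK mice drank 3% dextran sulfate sodium for 7 days. From day 8 to day 14, the Control and DSS mice received saline by gavage and the DSS+PAMK mice received 200 mg/kg PAMK, a polysaccharide from the rhizome of Atractylodes macrocephala. The RNA came from whole colonic tissue, so fewer cells of a type and less RNA per cell cannot be told apart.

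Haptoglobin is a plasma glycoprotein made mainly by the liver. It binds haemoglobin released from red cells, and macrophages take up the complex through the receptor CD163. It is an acute-phase protein, whose gene is switched on in inflammation by IL-6 through STAT3 and C/EBP factors, and myeloid and fat cells also make it. Kininogen is likewise a plasma protein of hepatic origin. Kallikreins cut it to release bradykinin, a peptide that widens vessels and makes them leak, and the long form of kininogen also belongs to the contact system of coagulation. DSS is a sulfated polysaccharide that injures the colonic epithelium, and the injured mucosa bleeds and fills with myeloid cells.

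Each value below rests on the RNA that binds 1 designed sequence of 60 bases. The sequences of the Hp and Kng1 probes are shown because they define what was measured, and that of Kng2, a second mouse kininogen gene, because it is compared with Kng1. They are given 5′ to 3′ as the array files hold them.
Hp: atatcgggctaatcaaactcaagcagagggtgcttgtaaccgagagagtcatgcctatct
Kng1: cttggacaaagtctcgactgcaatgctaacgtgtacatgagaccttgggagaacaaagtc
Kng2: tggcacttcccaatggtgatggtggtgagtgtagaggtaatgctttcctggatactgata
The Hp, Kng1 and Kng2 probes have the same share of G and C, 46.7%. So do the probes of the other plasma protein genes described below, so this is not particular to Hp and Kng1. The longest run of bases that the Hp probe shares with any other probe of the array is 15 on the same strand and 14 on the opposite strand. For the Kng1 probe both runs are 15, and with the Kng2 probe it shares a run of 6. Whether the Kng1 probe also binds RNA of Kng2 was not tested, since no transcript sequences were among the data used. Among the protein-coding genes of the RefSeq annotation, Hp lies on chromosome 8 between Txnl4b and Dhodh. Kng1 lies on chromosome 16 between Kng2 and Eif4a2, so the kininogen genes are direct neighbours among protein-coding genes.

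The Hp probe was well above background on all 9 arrays. This is the scanner software's mark for a spot that stands clear of the signal around it. The normalized log2 intensity of Hp was 6.95, 6.81 and 7.63 on Control replicates 1, 2 and 3. On DSS replicates 1, 2 and 3 it was 11.93, 12.42 and 9.55. On DSS+PAMK replicates 1, 2 and 3 it was 6.49, 8.88 and 5.50. The DSS arrays were thus the highest, with replicate 3 well below the other DSS arrays, and among the DSS+PAMK arrays replicate 2 stood above all Control arrays while the other arrays of its group lay below them.

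The group means of Hp were 7.13 ± 0.44 (SD, n = 3) in Control, 11.30 ± 1.53 in DSS and 6.96 ± 1.74 in DSS+PAMK. The DSS mean exceeded the Control mean by 4.17 on the log2 scale, an 18.1-fold difference. The lowest DSS array lay 1.93 above the highest Control array. Such a gap, with all DSS arrays above all Control arrays, was present for 10.5% of the 99612 tested probes, and since both genes were chosen by this contrast nothing is read from their having it. From DSS to DSS+PAMK the mean fell by 4.34, a 20.3-fold difference, and here the gap was narrow: DSS+PAMK replicate 2 lay only 0.67 below DSS replicate 3. All DSS+PAMK arrays lay below all DSS arrays for 6.53% of tested probes. The DSS+PAMK mean differed from the Control mean by -0.17, well within the spread of either group, and their arrays overlapped.

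On the linear scale of the scanner, the mean Hp spot was 6.22, 6.80 and 9.72 times its local background on the Control arrays. It was 146, 221 and 31.6 times the background on the DSS arrays, and 4.36, 17.0 and 3.60 times on the DSS+PAMK arrays. Hp was therefore read with a wide margin in the DSS group and with a much smaller one on 2 of the 3 DSS+PAMK arrays. Among the 81169 tested probes well above background on every Control and DSS array, the difference of Hp between these groups was the 11th highest. Among the 77461 well above background on every DSS and DSS+PAMK array, its fall was the 4th deepest. Since Hp was chosen by these same contrasts, nothing is read from these ranks.

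The Kng1 probe was well above background on 0 of 3 Control arrays, 3 of 3 DSS arrays and 1 of 3 DSS+PAMK arrays. Its normalized log2 intensity was 1.99, 2.72 and 1.45 on Control replicates 1, 2 and 3. On the DSS arrays, in the same order, it was 5.14, 5.87 and 7.63. On the DSS+PAMK arrays it was 1.13, 3.92 and 2.53, of which only the 3.92 of replicate 2 was well above background. Kng1 was thus measured throughout in the DSS group alone, and its values in Control are not levels but readings at the edge of the background.

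The group means of Kng1 were 2.05 ± 0.64 (SD, n = 3) in Control, 6.21 ± 1.28 in DSS and 2.53 ± 1.39 in DSS+PAMK. The lowest DSS array lay above every Control array, and it lay 1.22 on the log2 scale above DSS+PAMK replicate 2, the highest of its group. Because Control has no measured level, the difference is given with a floor. In the processed intensities, Kng1 was then 9.07-fold higher in DSS than in Control. For this value each Control array was given its own Kng1 signal. Where this lay below the dimmest signal that counted as well above background on the same array, that signal was used instead. This floor is not an upper limit for a spot that was not well above background, so the value is not a strict bound. On DSS+PAMK replicate 1, for example, Kng2 at 3.92 was not well above background, while the floor was 3.86. From DSS to DSS+PAMK, with the same floor on every array, the mean fell by 2.58. The floored 9.07-fold between DSS and Control rests in part on DSS replicate 3, without which it was 5.54-fold. Without that array the floored fall to DSS+PAMK was 3.66-fold, against 5.98-fold with all arrays. Leaving out this array with the floor was an alternative chosen after seeing the results. The Control and DSS+PAMK means are not ordered, since 5 of their 6 arrays were not well above background. Of all tested probes, 2.43% had all DSS arrays above all Control and all DSS+PAMK arrays, as both genes do by their selection.

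**Figure D1:**
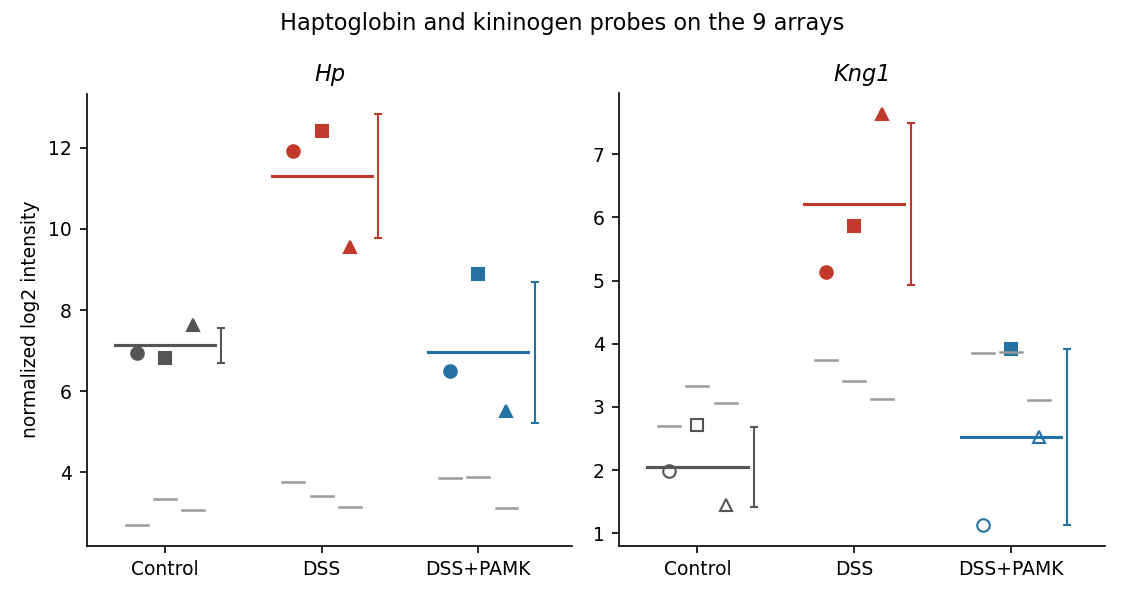
Normalized log2 intensity of Hp and Kng1 on each array, with circles, squares and triangles for replicates 1, 2 and 3. Filled symbols were well above background and open symbols were not, long lines are group means, bars are 1 SD, and short grey lines mark the lowest signal well above background on that array. Hp lies far above these marks on all 9 arrays, while Kng1 lies clear of them only in the DSS group.

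The margin of Kng1 over its background was small. The mean spot was 2.47, 1.83 and 1.57 times its local background on the Control arrays, and 2.62, 3.56 and 8.97 times on the DSS arrays. On the DSS+PAMK arrays it was 1.48, 1.86 and 1.69 times. By this raw ratio DSS replicate 1 lay close to Control replicate 1, and DSS replicate 3 stood apart. The planned normexp alternative, which also adds an offset of 50 to every spot, gave Kng1 a difference of 1.17 on the log2 scale between DSS and Control. An offset of this size shrinks differences of dim spots by construction, and added to the processed intensity alone it gave 1.27. With a normexp correction without the offset, the floored difference of Kng1 was 5.86-fold, against 9.07-fold. Both this setting and the offset alone were chosen after seeing the results. For Hp the difference without the offset was 4.10, against 4.17.

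Hp and Kng1 did not follow the same DSS mice. Hp was highest on DSS replicate 2 and lowest on replicate 3, with a difference of -2.87 between replicates 3 and 2. Kng1 was highest on DSS replicate 3, which lay 1.76 above replicate 2, and lowest on replicate 1. Over the 9 arrays their Pearson correlation was 0.76 (description only), which carries the group difference that selected them and 5 Kng1 values that were not well above background. With group means removed, the correlation was -0.075. In the DSS+PAMK group, both were highest on replicate 2.

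This order can be set beside other probes. Of the 99 probes in the study's list, 43 were highest on DSS replicate 2, 36 on replicate 1 and 20 on replicate 3, and 70 were lowest on replicate 3, as Hp was. Of the 1968 probes called higher in DSS with a value on every array, 16.8% were highest on DSS replicate 3, as Kng1 was, and 59.3% were lowest on it. Over all tested probes, replicate 3 was the highest DSS array for 29.3% and the lowest for 27.2%. Among probes higher in DSS, replicate 3 was thus more often the lowest array, as for Hp, than the highest, as for Kng1, and this did not hold over all tested probes. Replicate 1, the lowest DSS array for Kng1, was the lowest for 45.5% of all tested probes. Among those called higher in DSS it was the lowest for 20.4%. Hp also varied more between arrays of a group than most probes did, with a pooled SD of 1.36 against a median of 0.32 over all tested probes, and 0.226% of them had a larger one. For Kng1 only the DSS group was measured throughout, where its SD was 1.28 (n = 3) against a median of 0.295, and 1.72% of tested probes had a larger one.

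Other plasma protein genes were taken from lists of acute-phase, kinin, haem, coagulation and IL-6 to STAT3 genes. Of 113 genes on these lists, 7 could be named on the array: 5 of 41 acute-phase genes, 1 of 17 kinin genes, 1 of 22 coagulation genes, 0 of 14 haem genes and 0 of 20 IL-6 to STAT3 genes. All 7 stand in the same list of 99 as Hp and Kng1, because the symbols come from the study's sheets, which were selected on these arrays. Their direction is thus fixed by that choice and is not independent evidence. Haemoglobin, CD163, the bradykinin receptors, the kallikreins and IL-6 have no value here.

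All 7 were called higher in DSS than in Control by limma, where 1.98% of all tested probes were. A call required a 2-fold difference and an unadjusted p not above 0.05. The study's list was made on these arrays with the same thresholds in both comparisons with DSS. The calls of the 7 in these comparisons thus largely restate that selection, and nothing is read from their excess over all tested probes. The log2 differences of the 7 between DSS and Control lay between 1.57 and 2.14. The median was 1.87, against -0.04 over all tested probes. These differences were smaller than the 4.17 of Hp, which was chosen by this same contrast, so nothing is read from its larger size. After adjustment over all tested probes, which 175 of the 99612 passed, 1 of the 7 did, Kng2, by 1.57 with a standard error of 0.19 (adjusted p = 0.0389 from limma), and the other adjusted p-values reached up to 0.166. The methods' t-test passed 0 of all tested probes after adjustment, so this call was made by limma alone. In DSS+PAMK all 7 were called lower than in DSS, where 1.06% of all tested probes were, with a median difference of -1.81 against 0.02 over all tested probes. After adjustment limma passed 0 of all 99612 tested probes and so 0 of the 7, whose adjusted p-values lay between 0.628 and 0.660. Unadjusted, all 7 passed by limma and by the methods' test. The latter restates their selection, since the study listed them by that test on these arrays. These comparisons share the DSS arrays. Between DSS+PAMK and Control, 0 of the 7 were called in either direction, where 1.65% of tested probes were called higher and 1.02% lower, and their median difference was 0.23, between -0.54 for Fga and 0.66 for C3.

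Among the acute-phase genes, C3 encodes the central complement component. Its log2 intensity was 11.35, 12.05 and 11.01 on the Control arrays, 13.91, 14.00 and 12.91 on the DSS arrays, and 12.13, 12.54 and 11.71 on the DSS+PAMK arrays. C3 was thus above all 3 Control arrays on DSS+PAMK replicates 1 and 2, and above 2 of the 3 on replicate 3. The arrays of these groups overlapped, and C3 was not called between them. They shared no slide, as described below, so this order cannot be told apart from slide. Saa3, an acute-phase serum amyloid A made outside the liver as well as in it, was 6.74, 5.56 and 6.48 in Control, 8.07, 8.71 and 7.62 in DSS, and 6.10, 5.77 and 5.45 in DSS+PAMK. Serpina3m, a relative of the antichymotrypsin gene, was 6.11, 6.79 and 6.51, then 8.88, 9.12 and 7.69, then 6.33, 7.05 and 6.73 in the same order of groups. For all 3 genes the DSS arrays lay above all others, and DSS replicate 3 was the lowest of them, as for Hp.

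Itih4, which encodes a heavy chain of the inter-alpha-trypsin inhibitor family, was 4.76, 4.23 and 4.60 in Control, 5.86, 6.41 and 7.21 in DSS, and 4.97, 4.38 and 4.71 in DSS+PAMK. Fga, the fibrinogen alpha chain, was 3.99, 4.57 and 4.98 in Control, 6.07, 5.44 and 7.15 in DSS, and 3.70, 4.26 and 3.97 in DSS+PAMK, where replicate 1 was not well above background. Both were highest on DSS replicate 3, the array that was highest for Kng1. F10, the coagulation factor X gene, was 5.23, 4.30 and 4.99 in Control, 6.57, 6.67 and 5.99 in DSS, and 5.24, 5.43 and 4.93 in DSS+PAMK, with DSS replicate 3 the lowest of its group.

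Kng2, the neighbour of Kng1, was 3.68, 3.80 and 4.12 on the Control arrays, all well above background. It was 5.27, 5.55 and 5.48 on the DSS arrays and 3.92, 4.47 and 4.17 on the DSS+PAMK arrays, where replicate 1 was not well above background. Its DSS arrays were close to each other (SD 0.15, n = 3), and unlike Kng1 it was not higher on replicate 3 than on replicate 2. The difference of Kng2 between DSS and Control was 1.57, a 2.96-fold difference. With the normexp correction and its offset it was 0.45, below 2-fold, as were F10, Fga and Itih4, and the offset added to the processed intensity alone had the same effect on these 4 genes. With normexp without the offset, all 7 genes were called between DSS and Control, and all but Kng2 between DSS+PAMK and DSS, where its difference was -0.94.

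**Figure D2:**
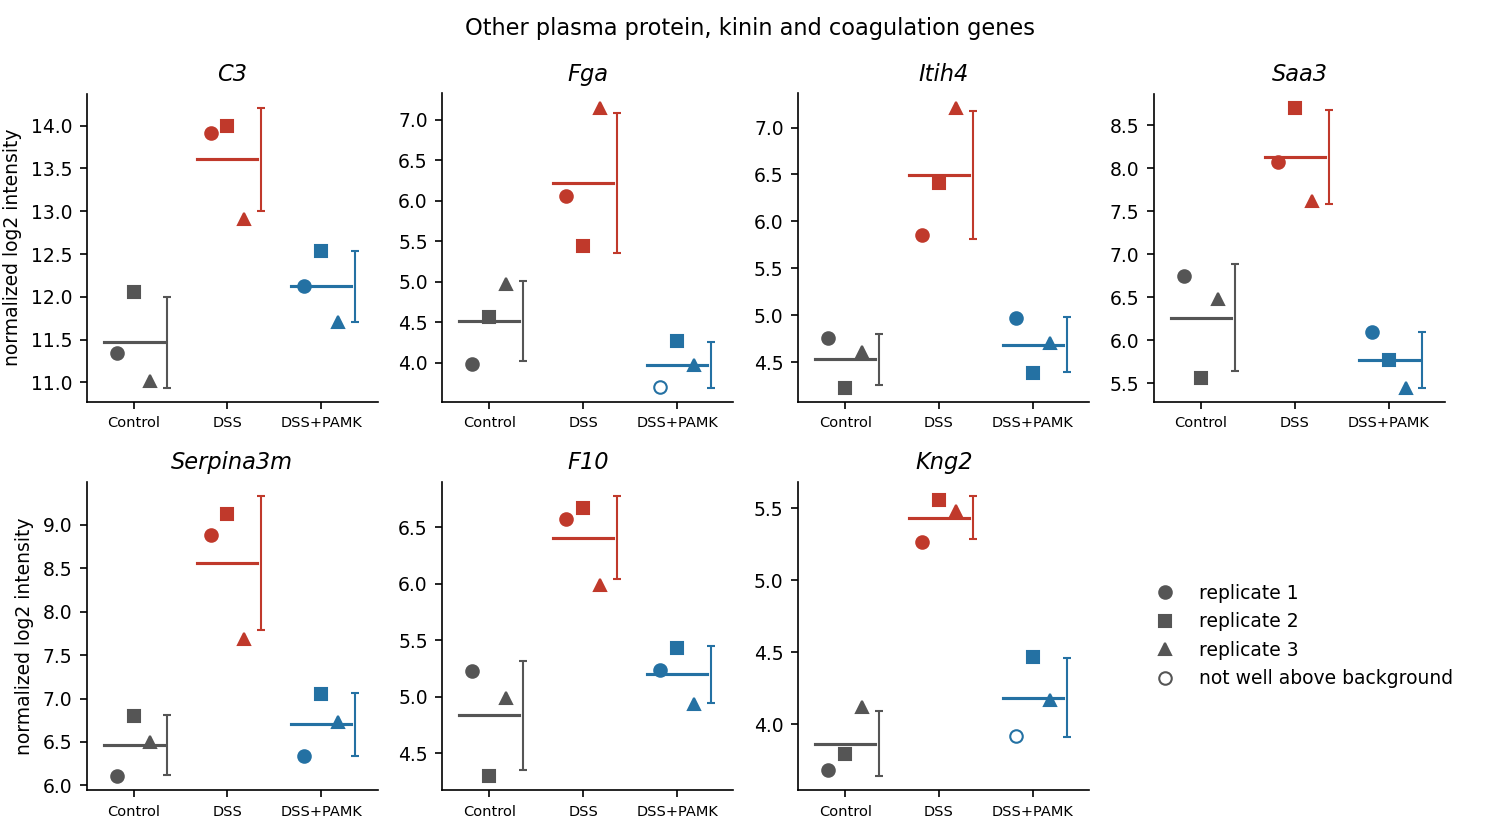
Normalized log2 intensity of the 7 other plasma protein, kinin and coagulation genes on each array, with group means as lines and 1 SD as bars. For each gene the 3 DSS arrays lie above the other arrays, and open symbols mark the arrays on which Fga and Kng2 were not well above background.

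**Figure D3:**
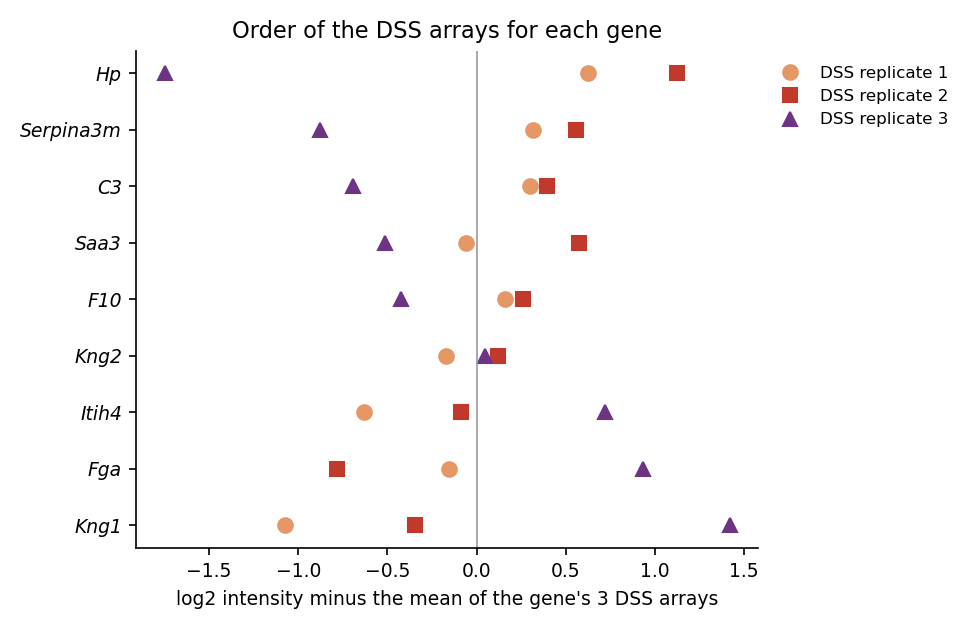
Log2 intensity on each DSS array relative to the mean of the 3 DSS arrays, for Hp, Kng1 and the 7 listed genes. DSS replicate 3 is the lowest array for Hp, Serpina3m, C3, Saa3 and F10 and the highest for Itih4, Fga and Kng1.

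The arrays were spread over 3 slides, and only some comparisons can be made within one. Slide 1 held the Control arrays and DSS replicate 1, slide 2 held DSS replicates 2 and 3 with DSS+PAMK replicates 1 and 2, and slide 3 held DSS+PAMK replicate 3. Within slide 1, the 1 DSS array exceeded the mean of the 3 Control arrays by 4.80 for Hp. For Kng1, with the floor on the Control arrays, the difference within slide 1 was 4.30-fold, against 9.07-fold over all arrays. Within slide 2, the mean of the 2 DSS+PAMK arrays was below that of the 2 DSS arrays, by a difference of -3.30 for Hp and, with the floor, of -2.86 for Kng1. These values with the floor were chosen after seeing the results. For the 7 listed genes the median was 1.73 within slide 1 and -1.71 within slide 2. With slide as a fixed block in the limma fit, Fga was no longer called between DSS and Control, at 1.55 against 1.71 (unadjusted p = 0.0583 from limma). F10 was no longer called between DSS+PAMK and DSS because its difference, -0.99 against -1.21, fell just short of 2-fold (unadjusted p = 0.0310 from limma). No slide held both Control and DSS+PAMK arrays, and the fixed block moved this difference to 1.498 for Hp, from -0.17. Whether Hp returned to the Control level in the DSS+PAMK group therefore cannot be told apart from slide, and for Kng1 these groups are not ordered.

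The arrays carry no pairing: same-numbered arrays of different groups had correlations between -0.20 and 0.09 after removal of group means. With the replicate number as a block (replicate block), which in this balanced design cannot change a difference of group means, all 7 listed genes were called in both comparisons with DSS. Leaving out single arrays moved the difference of Hp between DSS and Control over the range 3.61 to 5.05, or 12.2-fold to 33.1-fold, the highest without DSS replicate 3. For Kng1, with the floor, this difference ranged from 5.54-fold, without DSS replicate 3, to 13.2-fold, without DSS replicate 1. From DSS to DSS+PAMK the range for Hp was -5.31, without DSS+PAMK replicate 2, to -3.61, without DSS+PAMK replicate 3, or 39.6-fold to 12.2-fold. For Kng1, with the floor, the fall ranged from 3.66-fold, without DSS replicate 3, to 8.69-fold, without DSS replicate 1.

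**Figure D4:**
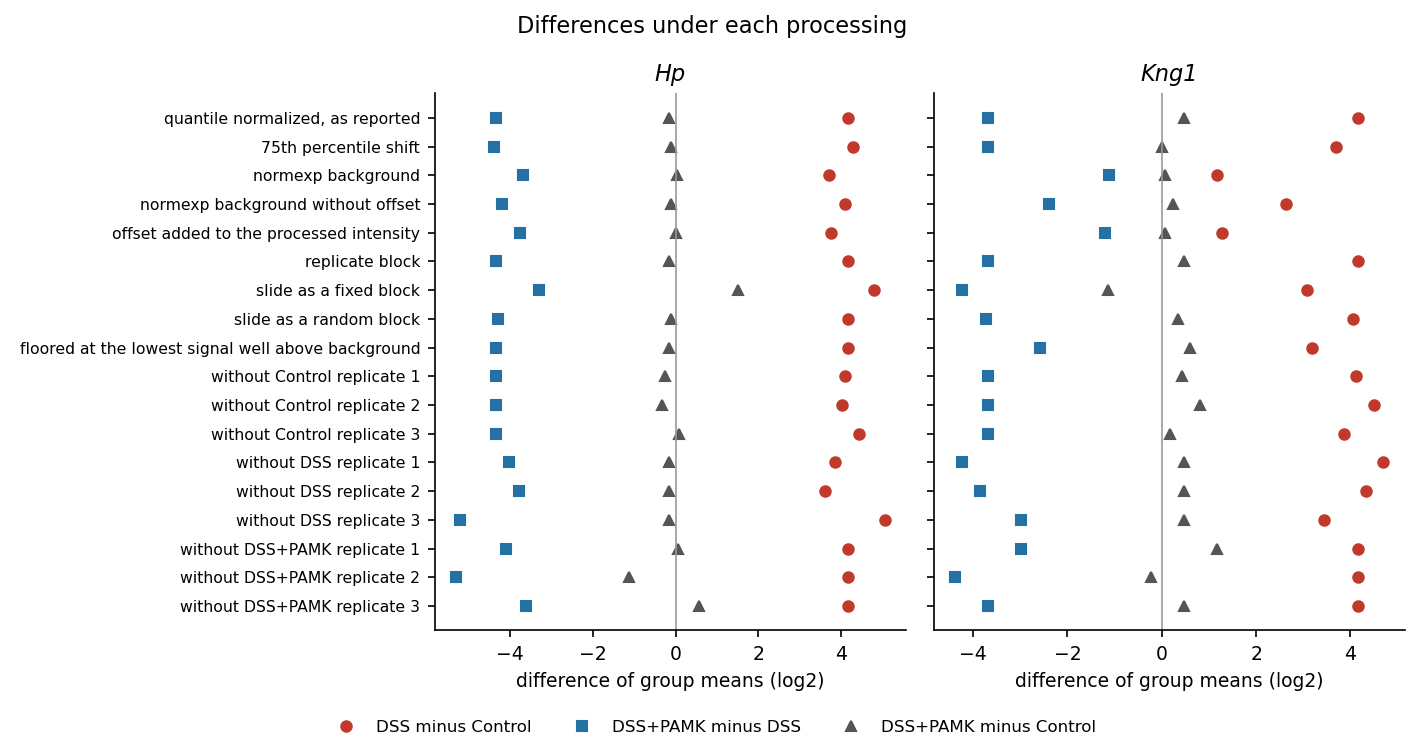
Differences of group means on the log2 scale for Hp and Kng1 under each way of processing the arrays, with circles for DSS minus Control, squares for DSS+PAMK minus DSS and triangles for DSS+PAMK minus Control. The first 2 differences keep their sign throughout, and those of Kng1 shrink most where an offset is added. Differences of Kng1 from Control or DSS+PAMK rest in part on readings at the background.

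For each gene, the 5 named genes with the most similar values over the 9 arrays were found by Pearson correlation, as a description. Those of Hp were Gm49368 (r = 0.968), Marco (0.962), Gpr84 (0.960), Slc13a3 (0.958) and Ifi204 (0.957). Marco is a scavenger receptor of macrophages, Gpr84 a receptor for fatty acids on myeloid cells, Ifi204 an interferon-inducible gene and Slc13a3 a carrier of dicarboxylates. Marco was not well above background on 5 of the 9 arrays. With group means removed, the correlations were between 0.837 and 0.930, for genes picked by their correlation on the same arrays.

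Those of Kng1 were Kng2 (r = 0.918), Scnn1b (0.893), Adamts3 (0.875), Fga (0.866) and Reg3d (0.864). Kng2 is the neighbouring kininogen gene, Scnn1b a subunit of the epithelial sodium channel, Adamts3 a procollagen protease, Fga the fibrinogen chain above and Reg3d a lectin of the Reg family. With group means removed, the correlations were 0.511, 0.543, 0.041, 0.565 and 0.479, so that most of the likeness of Adamts3 lay in the group means, and 5 of the 9 Kng1 values were not well above background. Over all 99589 other tested probes with values on all arrays, named or not, Kng2 ranked 9th. Of these other probes, 236 had a correlation of at least 0.9 with Hp and 22 with Kng1. The named probes were selected on these arrays, so high correlations are common among them.

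Markers of cell types were read where they could be named. Of 10 hepatocyte markers, 8 adipocyte markers, 6 erythroid markers, 4 smooth muscle markers and 4 renal tubule markers 0 could be named, so the presence of RNA from these cells was not tested. Of 10 macrophage and monocyte markers 4 were named, Ccr2, Marco, Itgam and Fcgr1, of which Fcgr1 was the brightest and Marco was not well above background in Control. Their summed normalized intensity was 276, 181 and 240 on the Control arrays, 1227, 910 and 634 on the DSS arrays, and 351, 554 and 316 on the DSS+PAMK arrays. This sum is weighted towards Fcgr1, and intensities of different probes are not on a common scale, so it is not a level of these cells. The 4 did not move alike. Between DSS+PAMK and Control, which shared no slide, Ccr2 was called higher, by 1.82 (adjusted p = 0.138 from limma). Of tested probes, 1.65% were called higher. Itgam and Fcgr1 were not called, at 0.74 and 0.42, and neither was Marco. From DSS to DSS+PAMK, Ccr2 was not called lower, at -0.86. Marco, Itgam and Fcgr1 were called lower, but they stand in the study's list of 99, which was selected on that fall. Of 13 neutrophil markers only Cxcr2, the receptor for neutrophil chemokines, was named. It was not well above background on any Control or DSS+PAMK array, and on the DSS arrays its log2 intensity was 5.32, 5.73 and 3.45. Of 10 markers of colonic epithelium only Slc26a3, the chloride exchanger of surface colonocytes, was named. Its log2 intensity was 13.01 ± 0.30 (SD, n = 3) in Control, 12.58 ± 0.24 in DSS and 13.69 ± 0.01 in DSS+PAMK. Of the 6 named markers, 4 stand in the list of 99, and the part of these cells in the levels of Hp and Kng1 was not tested.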

How the data were processed

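Colonic RNA of 9 samples, labeled with Cy3, was hybridized by the authors to Agilent ceRNA arrays, and the images were read with Agilent Feature Extraction 10.7.1.1. The deposited files hold the processed intensity of each spot on a linear scale, corrected for background within the array. They also hold, per the file headers, a p-value for the equality of spot and background, which was not used. Samples were grouped by their labels.

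Control and outlier spots were left out, and log2 processed intensity was quantile normalized over the 9 arrays, as in the methods. Tested were the 99612 of 166924 probes that some group measured well above background throughout. All arrays entered one limma fit of the group means (limma 3.58.1, R 4.3.3, tables read by the data.table package), with Benjamini-Hochberg adjustment over all tested probes. Symbols came from the supplementary sheets, names only, which gave 183 probes. Where a gene had several probes, the brightest stood for it. This concerned Ccr2 alone among the genes named here, and its DSS+PAMK and DSS arrays overlapped for the second probe and not for the first. Named genes were Hp, Kng1, the measured genes of the lists, and the 5 most correlated named probes of each. The members and lists were chosen with earlier results of these data known. The fit was tested on simulated data.

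Alternatives were a shift to the 75th percentile, a normexp background with offset 50, no filter, a filter on all 9 arrays, fits of only the groups compared, the methods' t-test, the replicate block, a block for slide, fixed or random (with statmod 1.5.0), a floor for dim spots and each array left out. Chosen after seeing the results were the floor for Kng1 with single arrays left out, within slides or on normexp values, normexp without the offset, and the offset of 50 alone. The number of arrays limits the precision.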

Additional observations from a re-analysis of the deposited data

How the results depend on the processing

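The differences of Hp between DSS and Control and between DSS+PAMK and DSS kept their sign, with 18.1-fold ranging from 12.2-fold to 33.1-fold and 20.3-fold from 9.86-fold, with slide as a fixed block, to 39.6-fold. The replicate block, the floor and leaving out arrays of the third group cannot change them by construction. Kng1 was measured throughout only in DSS, so its differences without a floor are not sizes. They kept their sign and were 1.17 and -1.11 with normexp and its offset, 1.27 and -1.20 with the offset alone, and 2.63 and -2.40 with normexp without the offset. With slide as a fixed block, DSS+PAMK minus Control moved to 1.498 for Hp and was -1.14 for Kng1, which orders nothing. The floored fold of Kng1 between DSS and Control, 9.07, was 5.54 to 13.2 without single arrays, 4.30 within slide 1 and 5.86 with normexp without the offset. Between DSS and DSS+PAMK it was 5.98, and 3.66 to 8.69 without single arrays, with the lower ends without DSS replicate 3. The floored variations and both settings that part the offset from normexp were chosen after seeing the results. An offset shrinks dim differences by construction, and the causes of the other shifts were not tested.

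Of the 7 listed genes, 3 were called in each comparison with DSS under normexp with its offset and under the offset alone. A shift to the 75th percentile, under which the median of all tested probes moved to -0.11 between DSS and Control, called 1 gene between DSS+PAMK and Control, Fga, at -1.04. Without single arrays 7, 7 and 0 genes were called throughout. A second probe of Hp or Kng1 could not be named, so that alternative was not run.

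Over all tested probes, 1969 were called higher in DSS than in Control, 1057 lower in DSS+PAMK than in DSS, and 2663 either way between DSS+PAMK and Control. The same 3 counts were 458, 230 and 341 with normexp and its offset, 500, 254 and 381 with the offset alone, and 1078, 544 and 1048 with normexp without the offset. They were 3391, 2656 and 5004 without a filter, and 1171, 422 and 1357 with the filter on all 9 arrays. The methods' t-test called 536 and 1619 in the latter 2 comparisons, and the last count was 5032 with the 75th percentile and 10652 with slide as a fixed block. Leaving out single arrays gave 844 to 1826 for the second count, the highest without DSS replicate 2, and 1611 to 5349 for the third, the ends without Control replicates 1 and 2. The cause was not tested. For Kng1, Kng2, Fga and other dim probes, signal over background limits how well the size of a difference is known.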
